A study of Mus musculus with 8 samples.

Results

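The genes described here encode the protein subunits of the cytosolic ribosome. They were chosen by symbol: Rpl or Rps followed by a number and at most a letter suffix, with the stalk genes Rplp0, Rplp1 and Rplp2 and with Rpsa, leaving out pseudogene symbols ending in -ps, the Rps6k kinases and every X-linked gene. A mean of at least 1 CPM (counts scaled to the size of each library, by its total for this rule and by its normalized size elsewhere) over the 8 libraries was also required. Of 84 autosomal symbols that matched, 81 met the minimum, 46 of the large and 35 of the small subunit, out of 47517 symbols in the files. Rpl10l, Rpl3l and Rpl39l, with means of 0.0889, 0.388 and 0.445 CPM, lay under the minimum, and the member with the lowest mean, Rps4l, stood at 21.9 CPM on that scale. Another 4 matching symbols are X-linked. The GENCODE M21 annotation of GRCm38 gives 76 of the members as protein coding and 5, Rpl6l, Rps12l1, Rps3a2, Rps3a3 and Rps4l, as processed pseudogenes, so for these 5 the name of a ribosomal protein gene rests on the symbol alone. RNA came from the whole inner ear at postnatal day 14 in 4 samples of heterozygous mutant mice, which carry a frameshift altering thyroid hormone receptor α1 (TRα1, encoded by Thra), and in 4 samples of their wild-type littermates. All mice were untreated, and the mutant mice keep a normal copy of Thra. The series title names the cochlea and the labels the inner ear. Whether a sample holds a single animal, a pool or a single ear is not stated, so a p-value here sets a difference against a spread between samples that could be partly technical.

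Each ribosome holds a single copy of most of its proteins, joined to ribosomal RNA, and the acidic stalk proteins are present in more copies. Because subunits are needed in equal numbers, ribosomal protein genes are known for levels that move together across tissues and states. Their messages start with an unbroken run of C and T, the TOP (terminal oligopyrimidine) sequence, through which mTORC1 and the RNA-binding protein LARP1 control their translation. Thyroid hormone is known as a regulator of growth and protein synthesis in many tissues, and the inner ear of young mice matures under its control.

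The start regions are shown first because a run of pyrimidines at the start of the message is a known feature of the control of the family. RefSeq start sites on GRCm38.p6 were found for 56 of the 81 members. Each line gives the 40 bases before and the first 20 bases after the RefSeq start on the strand of the gene, and capitals mark the longest run of C and T beginning within 20 bases of the start, where it has at least 5 bases.
Rpl7a (chr2:26910767-26910826, plus strand): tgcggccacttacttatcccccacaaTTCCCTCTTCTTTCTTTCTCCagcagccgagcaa
Rpl27a (chr7:109519155-109519214, plus strand): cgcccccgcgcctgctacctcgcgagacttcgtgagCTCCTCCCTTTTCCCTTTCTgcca
Rps6 (chr4:86857348-86857407, minus strand): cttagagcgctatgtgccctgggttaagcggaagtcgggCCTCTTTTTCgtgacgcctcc
Rpl38 (chr11:114668540-114668599, plus strand): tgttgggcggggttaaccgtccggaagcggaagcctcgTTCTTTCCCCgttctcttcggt
Rplp2 (chr7:141447611-141447670, plus strand): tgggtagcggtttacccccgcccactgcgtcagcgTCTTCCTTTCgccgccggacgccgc
Rpl22l1 (chr3:28805468-28805527, plus strand): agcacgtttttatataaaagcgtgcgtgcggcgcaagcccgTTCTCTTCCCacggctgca
Rpl22 (chr4:152325686-152325745, plus strand): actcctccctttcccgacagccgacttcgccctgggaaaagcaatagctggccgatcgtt
Rps27l (chr9:66946046-66946105, plus strand): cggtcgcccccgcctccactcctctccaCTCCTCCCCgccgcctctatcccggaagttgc
Rps27 (chr3:90213629-90213688, minus strand): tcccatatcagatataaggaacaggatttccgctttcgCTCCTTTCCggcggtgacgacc
Rps3 (chr7:99483690-99483749, minus strand): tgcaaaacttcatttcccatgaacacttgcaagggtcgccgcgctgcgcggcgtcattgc
Rpl9 (chr5:65391412-65391471, minus strand): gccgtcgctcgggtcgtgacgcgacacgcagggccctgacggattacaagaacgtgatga
Rpl7l1 (chr17:46782637-46782696, minus strand): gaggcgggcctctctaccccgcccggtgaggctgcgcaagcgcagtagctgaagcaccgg

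The run is 21 bases long in Rpl7a and 20 in Rpl27a, and it is 10 bases long in Rps6, Rpl38, Rplp2 and Rpl22l1. A marked run can begin before the RefSeq start, at position -14 in Rpl7a. In Rps27l the run of 9 bases begins at position -12 and ends before the start. The marked runs are therefore not shown to be TOP sequences. Of the members printed, Rpl22, Rps3, Rpl9 and Rpl7l1 hold no such run of 5 bases around the RefSeq start, which may not be the start used in this tissue. A run of at least 8 pyrimidines on the gene strand, between 20 bases before and 50 bases after the start, was found in 42 of the 56 members, or 75.0%, against 25.4% of 27025 RefSeq promoters. In the window of 250 bases before to 50 after the start, read on both strands, CCGGAAG (bound by ETS factors) was found in 41.1% of members and 9.12% of all promoters. GGGCGG (bound by Sp1) was found in 60.7% of members and 35.9% of all promoters, and AAGATGGC (bound by YY1) in 8.93% and 2.88%. AGGTCA, the core element that thyroid hormone receptors and other nuclear receptors recognise, was found in 3 members, or 5.36%, against 16.0% of all promoters. The reverse complement of CCGGAAG can share letters with a pyrimidine run. These are matches of letters in a window and not sites of binding.

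Libraries held 18930841 to 23064578 counts, and the lowest count of any member in a library was 338. No libraries agreed within sampling noise (lowest chi-square per degree of freedom 18.4). Thra was at 137, 113, 126 and 132 CPM in mutant replicates 1 to 4, against 114, 114, 102 and 98.4 CPM in wild-type replicates 1 to 4, a log2 fold change of 0.24 with an SE of 0.089 (edgeR adjusted p = 0.924). Counts per gene do not reveal a frameshift, so Thra does not check the labels. All 12 inner ear markers, among them Otof, Myo7a and Coch, had counts in every library. Summed markers of mucosal epithelium were at 3.95 to 6.21 CPM in mutant libraries, against 188 to 634 CPM in wild-type libraries, and 4 of the 8 (Bpifa1, Krt4, Krt5 and Krt14) passed the test as lower. Markers of dividing cells summed to 218 to 468 CPM in mutant libraries, against 324 to 960 CPM in wild-type libraries, and those of erythroid cells to 7669 to 19004 against 12883 to 49886 CPM. Both pairs of ranges overlapped, and the top of the erythroid range was wild-type replicate 2. No marker of either list passed the test (lowest edgeR adjusted p = 0.907 for dividing and 0.924 for erythroid cells). In whole tissue, fewer cells of a type and less RNA per cell cannot be told apart.

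Ribosomal protein messages were among the most abundant of the tissue. The median member had a mean of 260 CPM and stood at percentile 98.2 of the mean levels of the 21392 genes tested, and the highest mean was 648 CPM. Together the members took 2.47, 2.06, 2.41 and 2.16% of all counts in mutant replicates 1 to 4, against 2.41, 2.30, 2.03 and 2.47% in wild-type replicates 1 to 4. The exact (Clopper-Pearson) 95% interval of a share was at most 0.0134 percentage points wide, which covers counting error only. The genotypes overlapped, with means of 2.27 ± 0.195% in mutant and 2.30 ± 0.194% in wild-type libraries (SD, n = 4 each). The counts of small subunit genes divided by those of large subunit genes varied less, from 0.645 to 0.660 over the 8 libraries, with means of 0.653 ± 0.007 in mutant and 0.657 ± 0.003 in wild-type libraries (SD, n = 4 each).

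**Figure D1:**
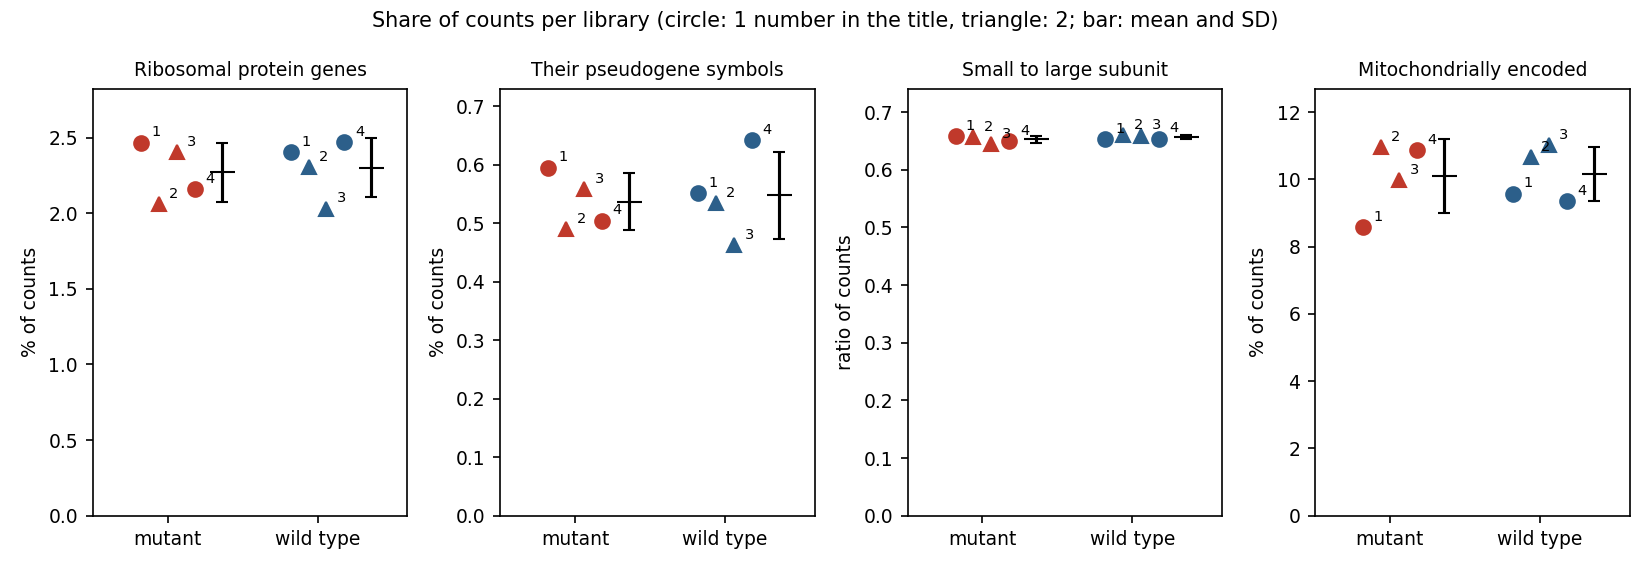
Share of all counts held by the ribosomal protein genes, share held by their annotated pseudogene symbols that are not X-linked, ratio of small to large subunit counts, and share held by mitochondrially encoded genes (y axes, % of counts or ratio) in each mutant and wild-type library, with the mean and SD of each genotype. The genotypes overlap in every panel, and the subunit ratio lies between 0.645 and 0.660 in all 8 libraries.

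Levels between genes are compared per kilobase of the principal annotated transcript (CPM per kb). The highest levels were those of Rpl41, which encodes one of the smallest known proteins, at 914 CPM per kb in mutant and 956 CPM per kb in wild-type libraries, of Rpl23a, a protein beside the exit tunnel, at 811 and 843 CPM per kb, and of the stalk gene Rplp1, at 751 and 732 CPM per kb. The lowest were those of Rpl7l1, a paralogue of Rpl7, at 17.9 CPM per kb in mutant and 17.8 CPM per kb in wild-type libraries, and of Rps4l, an autosomal copy of the X-linked Rps4x, at 23.5 and 23.2 CPM per kb. Rps15a followed at 40.1 and 40.6 CPM per kb, which depends on an annotated transcript of 5179 bases that is long for a ribosomal protein message. In wild-type libraries the SD was 93.5 CPM per kb for Rpl41, 89.9 for Rpl23a and 55.0 for Rplp1 (n = 4), so the order of Rpl41 and Rpl23a is not resolved beyond the spread between libraries, nor is that of Rplp1 and the next genes, Rpl26 at 707 and Rps29 at 711 CPM per kb in mutant and 726 and 724 CPM per kb in wild-type libraries.

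Within each genotype the members moved together from library to library, as the plot of members by library shows. Mutant replicate 2 was the lowest of the mutant libraries for 75 of the 81 members, and wild-type replicate 3 the lowest of the wild-type libraries for 75. Mutant replicate 1 was the highest mutant library for 60 members, and among wild-type libraries replicate 4 was highest for 45 and replicate 1 for 29. The mean log2 deviation of the members from their genotype mean was 0.14, -0.17, 0.04 and -0.01 in mutant replicates 1 to 4, and 0.08, -0.0004, -0.19 and 0.11 in wild-type replicates 1 to 4. The median within-genotype SD of log2 CPM was 0.15, and it was 0.065 once the mean deviation of each library was taken off, which carried 75.1% of the within-genotype variance. For 8539 genes in the same range of mean CPM, the median within-genotype SD was 0.16. Rps9, of the small subunit, followed the library mean closely, with an SD of 0.018 left over. Rps4l, Rpl22l1 and Rps27 followed it least, with 0.22, 0.18 and 0.14. These SDs are descriptions over libraries that share depth and scaling. The counts of members lowest or highest in a library and the 75.1% were not set beside those of other genes. How far such movement is particular to the members is therefore not shown.

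**Figure D2:**
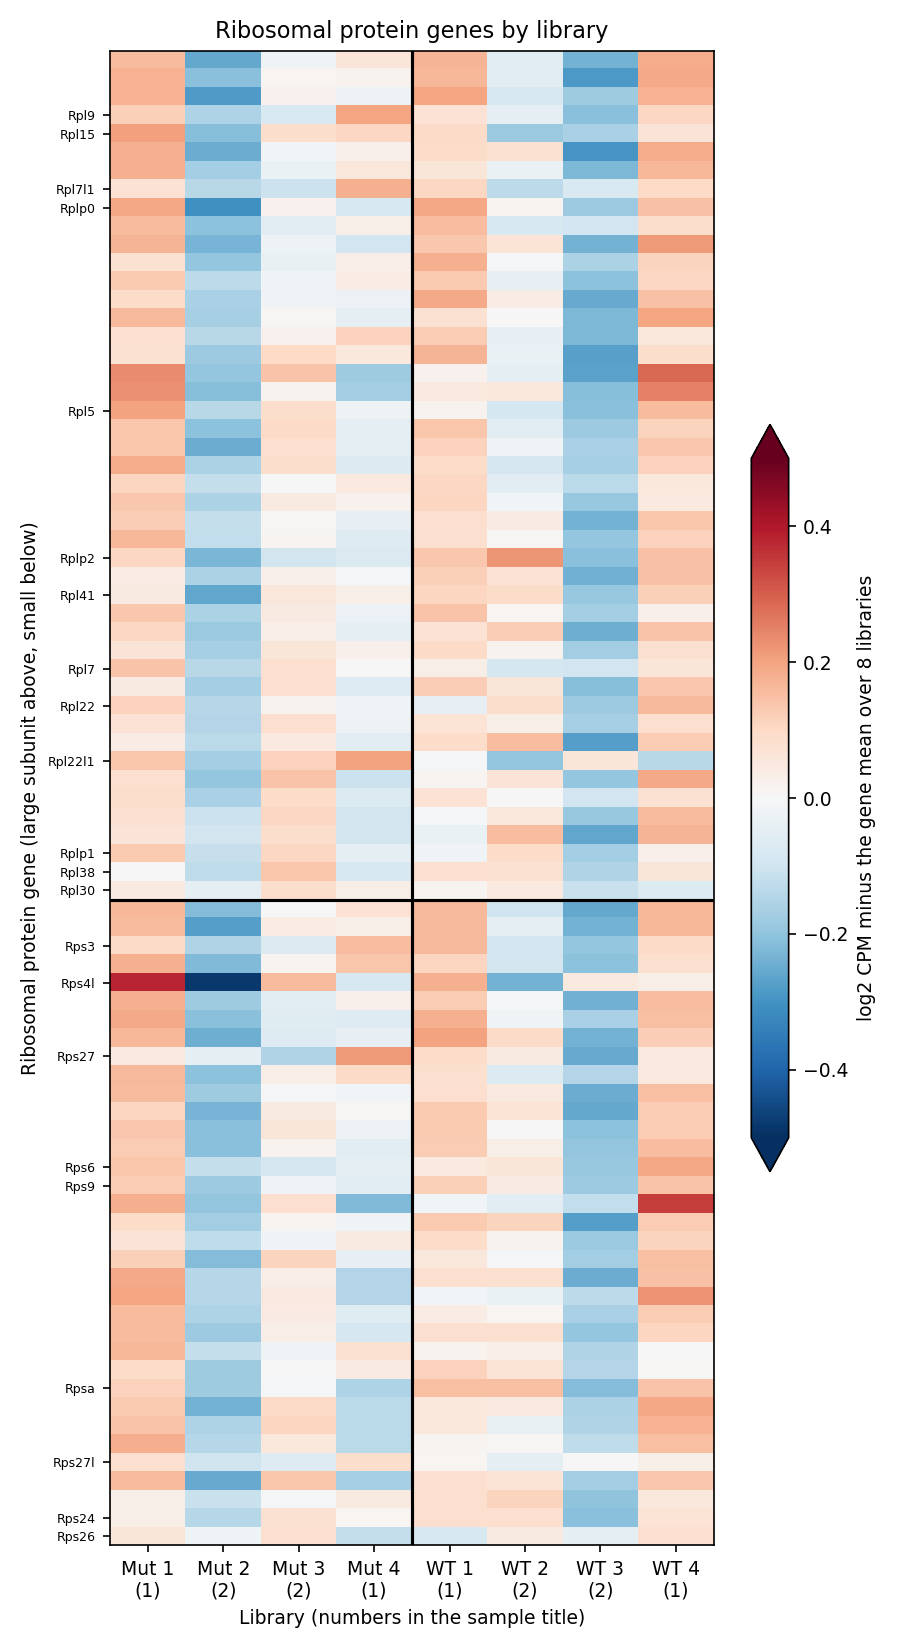
Log2 CPM of each of the 81 ribosomal protein genes minus its mean over the 8 libraries (colour), with large subunit genes above the horizontal line, small subunit genes below it, mutant libraries left and wild-type libraries right, and the count of numbers in the sample title in brackets (some genes of the text are labelled). Mutant replicate 2 and wild-type replicate 3 are low for 75 members each within their genotype.

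Between genotypes no ribosomal protein gene passed the test. With edgeR's quasi-likelihood test and an adjusted p under 0.05, 0 of 81 members were called, against 0.0421% of all 21392 genes tested. DESeq2 called 0 members, against 0.318% of all genes, and limma-voom 0, against 0.0795%. In edgeR 0 members reached an unadjusted p under 0.05, against 5.3% of all genes. The mutant and wild-type libraries overlapped for every member, whereas 2.69% of all genes had no overlap. Log2 fold changes (mutant minus wild type) were positive for 25 and negative for 56 members, against 51.7% of all genes negative, with a median of -0.02 beside -0.01 for all genes. They ran from -0.15 for Rplp2 to 0.15 for Rpl22l1, and their standard errors from 0.072 to 0.18 with a median of 0.11. The median was -0.01 for the large and -0.02 for the small subunit. The sign of the median depended on single libraries: it was -0.08 without wild-type replicate 3 and -0.07 without mutant replicate 1, and 0.03 without mutant replicate 2, 0.02 without wild-type replicate 4 and 0.01 without wild-type replicate 1. Among libraries with 1 number in the title the median difference was -0.07, and among those with 2 it was 0.02.

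**Figure D3:**
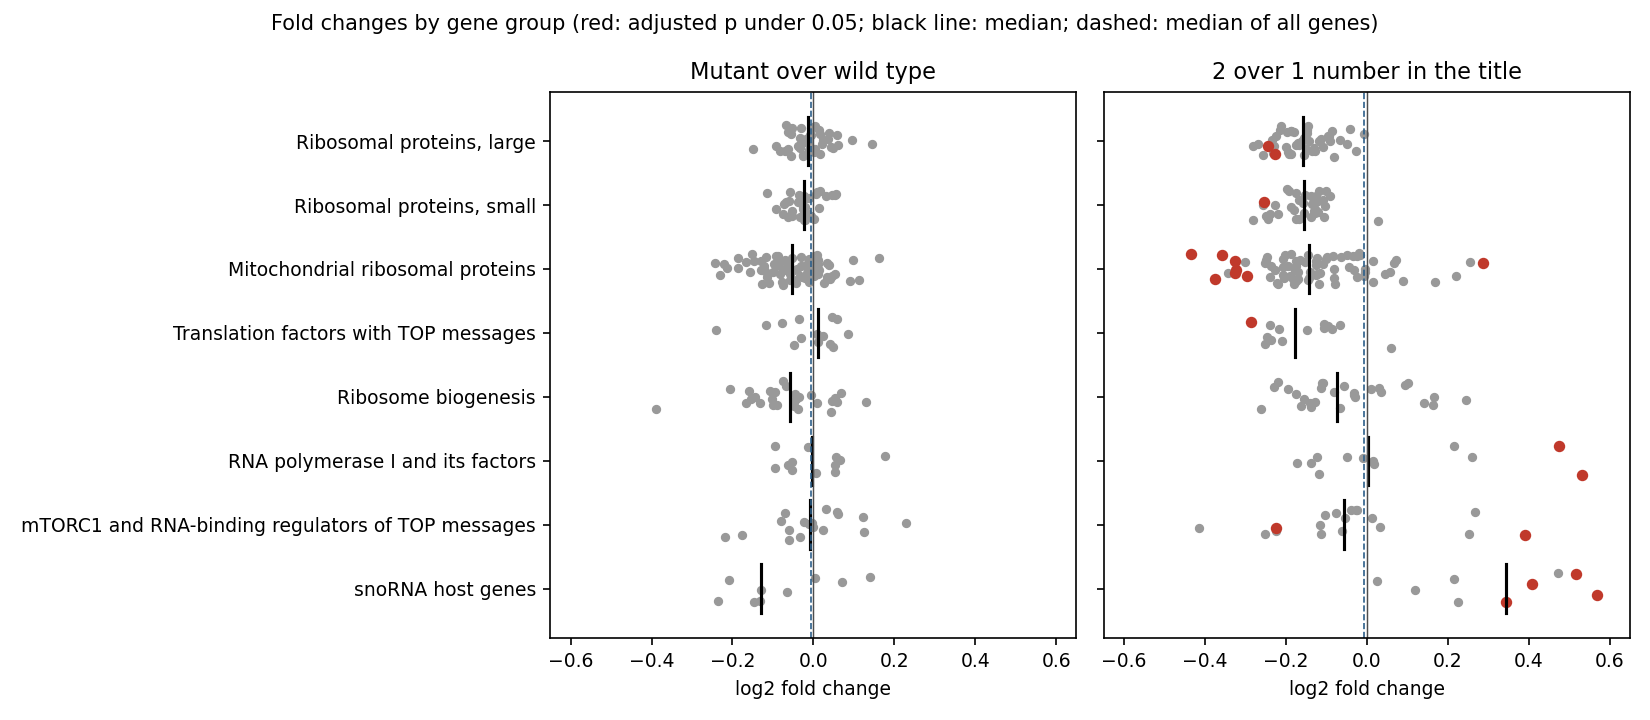
Log2 fold change of each gene (points, x axis) by gene group (y axis), for mutant over wild type at left and for libraries with 2 over libraries with 1 number in the title at right, with red for an adjusted p under 0.05, a black bar for the group median and a dashed line for the median of all genes. No point is red at left, and at right 80 of the 81 ribosomal protein genes lie below 0.

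Among the stalk genes, whose proteins recruit the elongation factors, Rplp2 had the largest negative fold change of all members. It stood at 290, 230, 253 and 257 CPM in mutant replicates 1 to 4, against 296, 314, 234 and 298 CPM in wild-type replicates 1 to 4. Only wild-type replicate 3 was within the range of the lower mutant libraries, and the fold change of -0.15 (log2, SE 0.12) did not pass (edgeR adjusted p = 0.995). Rplp0, the base of the stalk and a common reference gene in PCR, averaged 550 ± 78.7 CPM in mutant and 582 ± 65.6 CPM in wild-type libraries (SD, n = 4 each). Rplp1, the partner of Rplp2, averaged 375 ± 30.4 CPM in mutant and 365 ± 27.4 CPM in wild-type libraries (SD, n = 4 each).

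Rpsa encodes a small subunit protein also known as the laminin receptor precursor. It had 527, 431, 486 and 437 CPM in mutant replicates 1 to 4, against 541, 540, 419 and 537 CPM in wild-type replicates 1 to 4. Wild-type replicate 3 alone was below all mutant libraries, and the log2 fold change of -0.11 (SE 0.12) had an unadjusted p of 0.361 in edgeR. The next smallest p-values among negative changes were those of Rps2 (-0.09), Rpl8 (-0.09), Rps13 (-0.07) and Rpl18 (-0.06), and among positive ones those of Rpl15 (0.09), Rpl30 (0.06), Rps21 (0.05), Rpl5 (0.06) and Rpl7 (0.05), all log2 fold changes that did not pass.

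Several members have known roles beyond the common one, and none of these passed the test between genotypes. Rpl38, needed in mice for patterning of the axial skeleton and for a middle ear free of chronic inflammation, was at 224, 205, 247 and 212 CPM in mutant replicates 1 to 4, against 238, 236, 202 and 234 CPM in wild-type replicates 1 to 4. The genotypes overlapped, with a log2 fold change of -0.04 (SE 0.093). Rps6, which kinases downstream of mTORC1 phosphorylate, averaged 454 ± 37.3 CPM in mutant and 473 ± 50.8 CPM in wild-type libraries, and Rpl24, mutated in the belly spot and tail mouse, 211 ± 13.9 and 209 ± 15.4 CPM (SD, n = 4 each). Rpl5 and Rpl11, which with ribosomal RNA bind and restrain Mdm2, averaged 579 ± 58.6 and 203 ± 15.4 CPM in mutant libraries, and 554 ± 60.2 and 197 ± 20.2 CPM in wild-type libraries (SD, n = 4 each). The log2 fold changes of Rps19, Rps24, Rps26 and Rpl35a, mutated in human Diamond-Blackfan anaemia together with Rpl5 and Rpl11, lay between -0.04 and 0.003. Rps27a, made as a fusion with ubiquitin, averaged 242 ± 22.7 CPM in mutant and 243 ± 19.8 CPM in wild-type libraries (SD, n = 4 each). For Rpl13a, known to silence translation of inflammatory messages in human cells, the log2 fold change was -0.05 (SE 0.12), and for Rpl3, of the peptidyl transferase centre, it was -0.005 (SE 0.11).

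In 3 pairs of paralogues both genes met the rule, and the ratio of counts within a pair does not depend on the size of the library. Rpl22l1 encodes a paralogue that is known to rise in mice lacking Rpl22. It had the largest positive fold change of all members, at 57.5, 46.4, 56.6 and 60.03 CPM in mutant replicates 1 to 4, against 52.0, 45.5, 54.5 and 47.4 CPM in wild-type replicates 1 to 4. The highest libraries were mutant, but the genotypes overlapped (log2 fold change 0.15 with an SE of 0.10, edgeR adjusted p = 0.972). The log2 ratio of Rpl22l1 to Rpl22 counts was -1.58, -1.63, -1.50 and -1.39 in mutant replicates 1 to 4, against -1.57, -1.89, -1.36 and -1.90 in wild-type replicates 1 to 4. The highest and the lowest of these ratios were both wild-type. Means were -1.52 ± 0.107 in mutant and -1.68 ± 0.264 in wild-type libraries, a difference of 0.15 (exact two-sided permutation p = 0.343, adjusted over 3 pairs p = 0.800, n = 4 and 4). With 4 against 4 libraries the smallest p possible is 0.0286.

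Rps27l, which p53 is known to induce, stood at 25.3% of the counts of Rps27 in mutant and 25.6% in wild-type libraries. The log2 ratio averaged -1.98 ± 0.093 in mutant and -1.95 ± 0.162 in wild-type libraries (SD, n = 4 each, exact permutation p = 0.800, adjusted p = 0.800). Rpl7l1 stood at 8.17% of the counts of Rpl7 in mutant and 8.48% in wild-type libraries, with log2 ratios of -3.61 ± 0.152 and -3.56 ± 0.048 (SD, n = 4 each, exact permutation p = 0.6, adjusted p = 0.800). The plot of paralogue ratios shows that the genotypes overlap in all 3 pairs. A p that misses the threshold does not show that the ratios were equal.

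**Figure D4:**
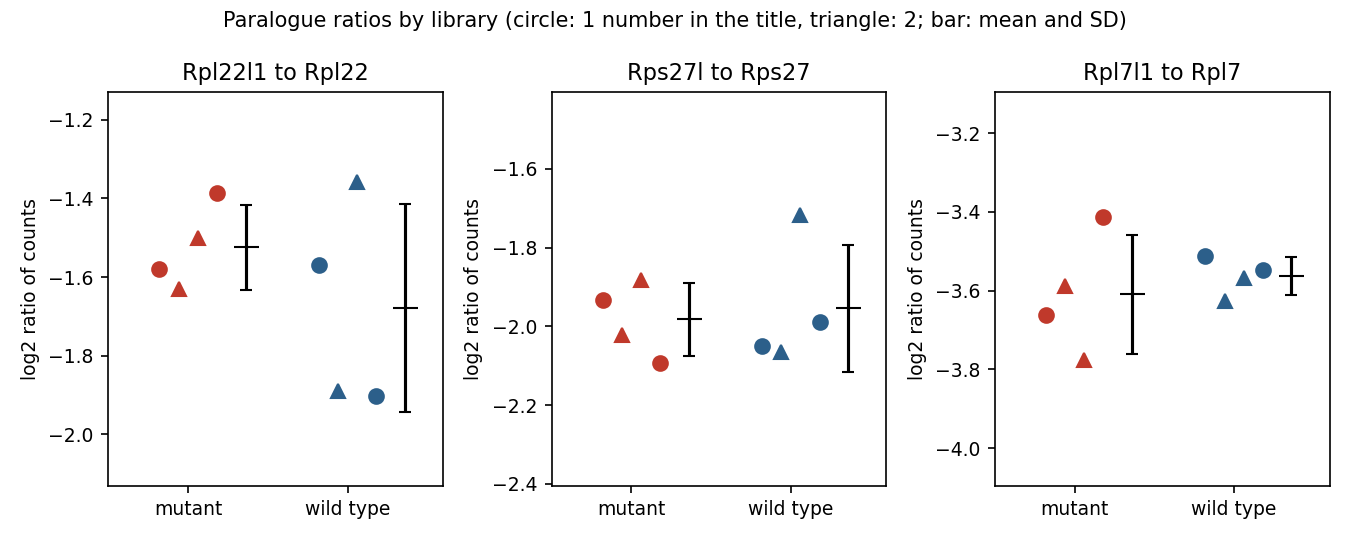
Log2 ratio of counts of Rpl22l1 to Rpl22, Rps27l to Rps27 and Rpl7l1 to Rpl7 (y axes) in each mutant and wild-type library, with the mean and SD of each genotype and each panel spanning 1 log2 unit. The genotypes overlap in every pair, and wild-type replicate 3 holds the highest ratio for both Rpl22l1 and Rps27l.

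The precision of single members is limited by near-identical copies in the genome, since the handling of reads that match several places is not given in the sources used here. In the annotation 50-base windows of a member's principal transcript also occur in transcripts of other symbols for a median of 44.7% of windows, and for more than 50% of windows in 34 members. For Rps12l1 all windows were shared. For Rps27 98.6% were, against 22.4% for its paralogue Rps27l, so the ratio of that pair may depend on how such reads were counted. Symbols ending in -ps, on any chromosome, were named as pseudogenes of 55 of the members. Those annotated and not X-linked numbered 224. These 224 held counts equal to 23.6 ± 0.413% of the members' counts in mutant and 23.7 ± 1.54% in wild-type libraries (SD, n = 4 each). With X-linked and unannotated ones included, the symbols ending in -ps held more counts than the gene itself for 4 members. They held 173% of it for Rpl35a, 127% for Rps6, 119% for Rpl31 and 108% for Rpl17. By genotype the median log2 fold change was -0.02 both for the 47 members under 50% of shared windows and for the other 34.

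Of the processed pseudogenes among the members, Rps3a2 differs from the coding sequence of Rps3a1 by 4 edits in 792 bases (99.5% identity), Rps3a3 by 9 (98.9%), Rpl6l from Rpl6 by 28 edits in 888 bases (96.8%), and Rps12l1 matches the 396 coding bases of Rps12 exactly. The stretches below show how few letters tell these members apart. They are bases 201 to 260 of the Rps3a1 and bases 467 to 526 of the Rpl6 coding sequence in GENCODE M21 transcripts, with capitals at each position where any of the copies printed differs from the parent.
Rps3a1: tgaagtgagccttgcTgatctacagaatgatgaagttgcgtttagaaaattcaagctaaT
Rps3a2: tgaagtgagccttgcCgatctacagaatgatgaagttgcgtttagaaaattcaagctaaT
Rps3a3: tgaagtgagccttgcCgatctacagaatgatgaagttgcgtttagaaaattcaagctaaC
Rpl6: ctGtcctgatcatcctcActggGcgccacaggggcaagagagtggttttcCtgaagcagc
Rpl6l: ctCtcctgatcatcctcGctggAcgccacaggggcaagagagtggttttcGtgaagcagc

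Rps3a1 averaged 644 ± 70.6 CPM in mutant and 653 ± 51.1 CPM in wild-type libraries (SD, n = 4 each). Rps3a2 averaged 288 ± 33.6 CPM in mutant and 293 ± 31.8 CPM in wild-type libraries, and Rps3a3 81.2 ± 11.4 and 85.6 ± 13.2 CPM (SD, n = 4 each). The 5 members annotated as pseudogenes together held between 0.0479 and 0.0652% of counts in a library, so the summed share of the members hardly rests on them. How reads were divided between these copies and their parents was not tested.

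The second contrast set libraries whose titles hold 2 numbers (replicates 2 and 3 of each genotype) against those with 1 number (replicates 1 and 4), with genotype as a covariate. What these numbers mean is not stated in the labels. Log2 fold changes (2 numbers minus 1 number) were negative for 80 of 81 members, against 50.8% of all genes, and only Rps26 was positive (0.03, SE 0.073), with a median of -0.16 beside -0.01 for all genes. With total counts in place of normalized library sizes 77 members were negative, with a median of -0.11 beside 0.04 for all genes. Of the members 3 passed as lower in libraries with 2 numbers, or 3 of 81, against 2.9% of all genes called in that direction, so this count is near the background. As higher 0 members passed, against 6.49% of all genes. An unadjusted p under 0.05 was found for 23 members, all lower. Among the 21392 genes tested, 2499, or 11.7%, were lower at that threshold, and 3248 were higher. Without single libraries the count of members lower at that threshold ran from 9 (without wild-type replicate 1) to 40 (without mutant replicate 3). It was 14 without wild-type replicate 3, 14 without mutant replicate 2 and 15 without mutant replicate 1. The counts without single libraries were not set beside those of all genes in the same fits. With all libraries, 18 members, all lower, had no overlap between the title forms. Among the 21392 genes tested, 1689, or 7.9%, were lower without overlap, and 2482 were higher without overlap. The members took 2.20 ± 0.185% of counts in libraries with 2 numbers and 2.37 ± 0.147% in those with 1 number (SD, n = 4 each). These shares overlapped. Mutant replicate 3 and wild-type replicate 2, with 2 numbers, held 2.41 and 2.30%, above mutant replicate 4, with 1 number, at 2.16%. Mutant replicate 2 and wild-type replicate 3, each lowest within its genotype for 75 members, both hold 2 numbers. As the members moved together from library to library, the counts of members above are not separate observations.

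Rps3, a small subunit protein at the entry of the message that also has a DNA repair activity (chr7:99477896-99483738, minus strand), had 238 and 252 CPM in mutant replicates 2 and 3 and 248 and 231 CPM in wild-type replicates 2 and 3. Libraries with 1 number were all higher, at 282 and 294 CPM in mutant replicates 1 and 4 and 295 and 282 CPM in wild-type replicates 1 and 4 (log2 fold change -0.25, SE 0.057, edgeR adjusted p = 0.0367). Only 2.96% of the windows of Rps3 occur under another symbol. Rpl7l1 (chr17:46773907-46782672, minus strand) averaged 42.8 ± 0.821 CPM in libraries with 2 numbers and 50.1 ± 1.58 CPM in those with 1 (SD, n = 4 each), with a log2 fold change of -0.23 and an SE of 0.053 (edgeR adjusted p = 0.0400). Rpl9, a large subunit protein (chr5:65388364-65391444, minus strand), averaged 175 ± 8.92 CPM in libraries with 2 numbers and 207 ± 7.61 CPM in those with 1 (SD, n = 4 each), with a log2 fold change of -0.24 and an SE of 0.060 (edgeR adjusted p = 0.0461), but 93.3% of its windows occur under another symbol. Rpl38 and Rpl30 were nearly level in this contrast, with log2 fold changes of -0.03 (SE 0.085) and -0.01 (SE 0.061).

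These calls were not stable. DESeq2 called 19 members, all lower, against 5.48% of all genes called in that direction. With total counts in place of normalized library sizes 0 were called, against 1.25% of all genes called lower. In that fit 11 members had an unadjusted p under 0.05, all lower, a count not set beside that of all genes. Leaving out a single library left 0 called, except that 1 (Rpl9) was called without wild-type replicate 2. Some other RNA also differed by title form. Summed neuron markers were at 4184 to 4981 CPM in libraries with 2 numbers, against 6397 to 6936 CPM in those with 1. Of these markers 4 of the 8 (Nefl, Nefm, Nefh and Tubb3) passed as lower, against 2.9% of all genes. Snap25, Syt1, Stmn2 and Scg2 did not pass. Syt1 was highest in mutant replicate 2 and wild-type replicate 2, with 2 numbers, at 78.7 and 75.9 CPM, so the markers did not all follow the sum. Mitochondrially encoded genes took 10.7 ± 0.476% of counts in libraries with 2 numbers and 9.59 ± 0.949% in those with 1 (SD, n = 4 each), but these overlapped. Mutant replicate 4, with 1 number, was at 10.9%, above mutant replicate 3 and wild-type replicate 2, with 2 numbers, at 9.98 and 10.7%. The part of these other RNAs in the values of the members was not tested.

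The wider machinery of ribosome production was read from 8 lists and likewise gave no call by genotype in edgeR, DESeq2 or limma-voom. Of ribosomal proteins whose symbols fall outside the rule, Fau, made as a fusion with a ubiquitin-like protein, had a log2 fold change of -0.07 (SE 0.11) and Rpl36al one of -0.12 (SE 0.12). Among 14 translation factors with TOP messages 8 were positive and 6 negative, with a median of 0.01. Among 28 ribosome biogenesis genes 7 were positive and 21 negative (median -0.06), and 2 had an unadjusted p under 0.05, both lower. The lower of these was Bysl, needed for maturation of the small subunit, with 32.8, 25.7, 27.6 and 29.6 CPM in mutant replicates 1 to 4, against 39.2, 40.6, 29.7 and 42.1 CPM in wild-type replicates 1 to 4. Only wild-type replicate 3 was within the mutant range (log2 fold change -0.39 with an SE of 0.13, edgeR adjusted p = 0.907). The other was Nop14, also of small subunit maturation, at 23.7 ± 0.764 CPM in mutant and 26.5 ± 0.656 CPM in wild-type libraries (SD, n = 4 each). Its genotypes did not overlap, at a log2 fold change of -0.16 with an SE of 0.067 (edgeR adjusted p = 0.924). Of all genes 3.09% were lower at an unadjusted p under 0.05.

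RNA polymerase I and its factors had 6 of 12 genes positive (median -0.003), and the mTORC1 and TOP message regulators 8 of 18 (median -0.01), with 0 at an unadjusted p under 0.05 in either list in edgeR. Among 9 genes that host small nucleolar RNAs, which guide the modification of ribosomal RNA, 3 were positive and 6 negative (median -0.13). Mtor itself averaged 59.0 ± 2.21 CPM in mutant and 60.4 ± 4.65 CPM in wild-type libraries (SD, n = 4 each). Among 7 genes of ribosome quality control and nucleolar stress, Gtpbp2, which rescues stalled ribosomes, was at 30.6, 28.4, 32.2 and 26.6 CPM in mutant replicates 1 to 4, against 33.8, 38.9, 34.3 and 37.1 CPM in wild-type replicates 1 to 4. All mutant libraries were lower, and the log2 fold change of -0.29 (SE 0.086) did not pass after adjustment (edgeR adjusted p = 0.907). Of 77 mitochondrial ribosomal protein genes 57 were negative (median -0.05), and 2, Mrpl18 and Mrps11, had an unadjusted p under 0.05, both lower, with log2 fold changes of -0.23 (SE 0.094) and -0.24 (SE 0.11). The cytosolic members thus had a median of -0.02 and their mitochondrial counterparts one of -0.05, and the difference between the lists was not tested.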

How the data were processed

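RNA of the mouse inner ear was measured at day 14 in 4 mutant and 4 wild-type samples by total RNA sequencing, and the kit adds unique molecular identifiers (per the labels' protocols). Per the submitters' processing notes, the authors used FastQC, STAR and HTSeq with build mm10, versions unstated. The deposited values are raw counts per gene symbol. Not given in the sources used here are the annotation, the strand setting, the treatment of multiply matching reads and the use of the identifiers. Totals ranged from 18930841 to 23064578 counts per library.

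Counts were tested with edgeR 4.0.16 in R 4.3.3: trimmed mean of M-values, default expression filter, robust quasi-likelihood, genotype as the only term, and Benjamini-Hochberg adjustment over all 21392 genes tested, with a threshold of 0.05. The standard error is the log2 fold change divided by the square root of F. CPM uses normalized library sizes, and log2 CPM a prior count of 2. Title form was fitted with genotype as a covariate. Paralogue ratios (0.5 added to both counts) were compared by exact two-sided permutation. The scripts were tested on simulated data. Coordinates come from GENCODE M21 and promoters from RefSeq on GRCm38.p6. Members, gene lists and tests were chosen with earlier results of these data known.

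Members named are the stalk genes, both genes of each paralogue pair, members with a further known role, those with the smallest p in each direction, and those highest or lowest per kilobase. Rps9, Rpl26, Rps29 and the pseudogene members and their parents were picked once their values were known. Some members and list genes have results that are not reported here. The alternatives tried were another normalization (relative log expression, upper quartile, total counts), no filter or a stricter one (1 CPM in 4 libraries), DESeq2 1.42.0, limma-voom (limma 3.58.1), each library left out, a block of neighbouring title numbers, a title form covariate, haemoglobin left out, and members left out of the normalization factors. Date-like symbols number 15 and hold up to 0.135% of counts. Replicate numbers follow accession order and are not used as pairs, except in the block of neighbouring title numbers.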

Additional observations from a re-analysis of the deposited data

Results flagged for a closer look

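Of 86 groups of 4 libraries checked for a library far from the others (Dixon's test at the 95% level, which flags about 5% of groups by chance), 6 had one, and in each it was the lowest library. In wild-type libraries this was replicate 3 for Rpl38 (202 CPM, a gap to the next library of 0.893 of the range), Rpl41 (475 CPM, 0.900), Rps24 (396 CPM, 0.946), Rps27 (125 CPM, 0.854) and Rpsa (419 CPM, 0.970). In mutant libraries it was replicate 2 for Rpl41 (452 CPM, 0.916). Wild-type replicate 3 and mutant replicate 2 are the libraries that were lowest for 75 members each, so these gaps are not separate observations.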

How the results depend on the processing

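In 19 alternative fits by genotype the number of members called stayed at 0, as did that of list genes. The members' median log2 fold change lay between -0.08 and 0.03 over them, and the extremes came from leaving out wild-type replicate 3 and mutant replicate 2. By title form, 3 members were called, 19 with DESeq2, 0 with total counts only, and 0 to 1 when a single library was left out (1 without wild-type replicate 2). The cause was not tested. Neighbouring title numbers were tried as a replicate block, although the labels do not say whether they pair samples. Over all genes the deviations of neighbouring libraries correlated with r = 0.128, 0.252, 0.187 and -0.038. Over the members r was 0.119, 0.596, 0.059 and -0.438. Title form does not vary within a block, and its fit took no account of blocks. With the block 0 members were called by genotype, with a median of -0.02, and the paralogue ratio of Rpl22l1 to Rpl22 had an exact sign-flip p = 0.5. The median standard error of 0.11 limits what 4 libraries per genotype can resolve for a single member.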

Other observations

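A list of 9 genes that host small nucleolar RNAs (Gas5, Snhg1, Snhg3, Snhg5, Snhg6, Snhg8, Snhg12, Rabggtb and Eif4a2) was read by title form. All 9 had positive log2 fold changes (2 numbers minus 1 number), with a median of 0.34, and 4 passed as higher, against 6.49% of all genes called in that direction. Gas5, a host whose spliced RNA begins with a TOP sequence, was at 94.0 and 103 CPM in mutant replicates 2 and 3 and 96.1 and 85.9 CPM in wild-type replicates 2 and 3. Libraries with 1 number were all lower, at 64.3 and 63.5 CPM in mutant replicates 1 and 4 and 64.8 and 62.3 CPM in wild-type replicates 1 and 4 (log2 fold change 0.57, SE 0.061, edgeR adjusted p = 0.00558). Snhg12, Snhg1 and Snhg8 were called with log2 fold changes of 0.52, 0.41 and 0.34 (edgeR adjusted p = 0.0335, 0.0447 and 0.0472). With total counts only 4 hosts were called and with DESeq2 5, and with any single library left out 1 was. Leaving out wild-type replicate 3 or mutant replicate 3 made 1 of the 9 negative. Other host genes outside this list were negative, among them Ncl (-0.26), Eef2 (-0.24) and Eef1b2 (-0.21), named here after their values had been seen. Of the ribosomal protein genes 28 hold 56 small nucleolar RNA genes, and their median log2 fold change was -0.15 beside -0.16 for the other 53 members.

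Mitochondrial ribosomal protein genes mostly had negative fold changes by title form. Of 77 genes 66 were negative (median -0.14), 7 passed as lower and 1, Mrpl24, as higher (0.29, SE 0.065, edgeR adjusted p = 0.0371), against 2.9% of all genes called lower and 6.49% called higher. With total counts only 56 were negative, with 3 called lower. The counts called lower when a single library was left out ran from 0 to 6. Eif3h, a translation initiation factor with a TOP message (-0.29, SE 0.064), and Larp1, which binds TOP messages (-0.22, SE 0.052), passed as lower, with edgeR adjusted p = 0.0367 and 0.0399. With total counts neither of their lists had a gene called lower. With single libraries left out, the list of Larp1 had 0 called lower each time, and that of Eif3h 0 each time except without wild-type replicate 2, where it had 1. Rps6kb2, a kinase of the ribosomal protein Rps6 in the list of Larp1, passed as higher (0.39, SE 0.082, edgeR adjusted p = 0.0307). Taf1a (0.53, SE 0.13) and Taf1b (0.48, SE 0.080), of the factor that places RNA polymerase I at its promoter, passed as higher, with edgeR adjusted p = 0.0494 and 0.0170, and with single libraries left out their list had between 0 and 2 genes called higher. Among 186 tested pseudogene symbols of the members, 177 were negative, with a median of -0.23, and 5 passed as lower, a share near the 2.9% of all genes.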
